A study of Mus musculus with 8 samples.

Results

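The prolactin and growth hormone receptor JAK-STAT5 chain was followed by mouse in pancreatic islets of mice that had or lacked the cannabinoid receptor CB1R, the product of *Cnr1*, in their beta cells. Its 10 genes were chosen by symbol, with earlier results of these data known. They were the receptors *Prlr*, *Ghr* and *Csf2rb*, the kinase gene *Jak2*, the transcription factor genes *Stat5a* and *Stat5b*, and the feedback inhibitor genes *Cish*, *Socs1*, *Socs2* and *Socs3*. They are 10 of the 21154 genes whose array probes could be matched to a symbol. The 10 genes had 16 of the array's 55681 probes, found through the transcript accession of each probe, and all 16 were bright enough to be compared.

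When prolactin or growth hormone binds its receptor, the attached kinase JAK2 phosphorylates the receptor tail and the latent factors STAT5A and STAT5B, which then enter the nucleus and bind DNA at palindromic sites. *Cish*, *Socs1*, *Socs2* and *Socs3* are switched on by such signalling and encode proteins that damp it, so that their transcripts are widely used as a readout of recent receptor activity. In islets the chain is best known from pregnancy, when lactogens acting on the prolactin receptor of beta cells raise their number and insulin output.

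Islets came from 4 β-CB1R+/+ mice, which were *Cnr1* flox/flox without MIP-Cre/ERT, and from 3 β-CB1R-/- mice, which were *Cnr1* flox/flox with MIP-Cre/ERT, a tamoxifen-activated Cre recombinase driven by an insulin promoter. All were male C57BL/6 mice on a standard diet. Per the study's methods both genotypes received tamoxifen, and the age of the array mice is not given in the sources used here. The sample labels' animal paragraph speaks of a global knockout, whereas the design text and the paper name the beta cell one. Background knowledge of MIP-Cre/ERT is that its construct includes a minigene for human growth hormone. Every β-CB1R-/- mouse carried the transgene and no β-CB1R+/+ mouse did, so for each result below the transgene and the loss of CB1R cannot be told apart.

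RNA was hybridised to 8 single-colour arrays on 1 slide, with β-CB1R-/- replicate 2 on a pair of repeat arrays that were averaged. Each genotype lay on one side of the slide, and genotype and position on it cannot be told apart. Between 33304 and 39988 probes were well above background on each array. Levels are log2 intensities with each array's 75th percentile subtracted, and each probe is compared between mice. Levels of different probes are not compared, other than to take the brightest probe of a gene or list and to sum marker lists. *Cnr1* itself read −1.11, −0.76, −0.53 and −0.02 in β-CB1R+/+ replicates 1 to 4 and −2.30, −3.13 and −2.28 in β-CB1R-/- replicates 1 to 3, a difference of −1.97 (SE 0.33, limma adjusted p = 0.193) with no overlap between genotypes. It was −1.08 with normexp background correction, and 3 of the 4 β-CB1R-/- arrays were well above background for *Cnr1*. The hormone genes were well above background in every mouse, between 10.41 and 11.23 for *Ins1*, between 9.71 and 10.50 for *Ins2* and between 9.43 and 10.12 for *Gcg*. Whole islets hold several cell types, and fewer cells of a type cannot be told apart from less RNA per cell.

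The palindrome TTCNNNGAA, the core that STAT5 binds, was looked for in the RefSeq promoter windows of the genes (build GRCm38.p6, 250 bases before the start site to 50 after). It reads the same on either strand, so one search covers both. Of the 10 genes 8 had a window, 13 windows in all, and *Socs2* and *Csf2rb* had none. The motif was in 3 of the 13 windows, beside 8.30% of 32851 windows over all genes. The *Cish* window held 2 matches, and 0.457% of all windows held 2 or more. The stretches below show the *Cish* matches lying at the start site itself, 11 bases apart, and the single matches of *Socs3* and of the second *Prlr* window further upstream. Capitals mark the motif, and all are written 5′ to 3′ on the gene's strand. A match is a run of letters and no evidence of binding.
Cish (chr9:107296409-107296688, plus strand): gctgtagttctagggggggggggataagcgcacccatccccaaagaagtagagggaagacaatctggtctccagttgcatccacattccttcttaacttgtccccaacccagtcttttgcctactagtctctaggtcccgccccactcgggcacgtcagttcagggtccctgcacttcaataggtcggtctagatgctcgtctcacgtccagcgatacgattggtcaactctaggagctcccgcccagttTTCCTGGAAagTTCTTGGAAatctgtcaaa
Socs3 (chr11:117969472-117969560, minus strand): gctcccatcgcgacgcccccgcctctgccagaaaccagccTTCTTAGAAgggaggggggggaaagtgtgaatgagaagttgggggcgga
Prlr, second start site (chr15:10223756-10223844, plus strand): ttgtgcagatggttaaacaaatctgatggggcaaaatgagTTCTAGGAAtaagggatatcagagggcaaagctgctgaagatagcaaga
The *Socs3* match began 154 bases before its start site and the *Prlr* match 110 bases before.

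Across the chain, 1 of the 16 probes, of *Csf2rb*, passed limma's threshold (Benjamini-Hochberg adjusted p under 0.05 over all 39165 probes compared), where 0.11% of all probes did and 0.107% did so as higher in β-CB1R-/- islets. The mice of the genotypes did not overlap for 7 probes, where this held for 4.12% of all probes: 5 were higher in β-CB1R-/- islets (2.16% of all probes) and 2 lower (1.96%). The higher ones were both probes of *Csf2rb* and the 3 probes of *Socs2*, and the lower ones were 1 of the probes of *Ghr* and the probe of *Stat5a*. Among the higher ones, the dimmer *Csf2rb* probe was compared only because of its signal in β-CB1R-/- mice. Probes of one gene share mice and transcript and are not independent of each other. The genes were chosen with earlier results of these data known, so the shares over all probes give a setting and no test. The differences were positive for 9 probes and negative for 7, with a median of 0.26 on the log2 scale beside −0.02 for all probes. Counted once per gene, by the brightest probe, 4 of the 10 genes were higher and 6 lower, and the median turned to −0.08, beside −0.04 for all genes. The repeat arrays of β-CB1R-/- replicate 2 differed by 0.01 to 0.26 for these probes, the most for the dimmer *Csf2rb* probe. With 4 mice against 3 the exact permutation test over 35 arrangements cannot give a p below 0.0286.

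**Figure D1:**
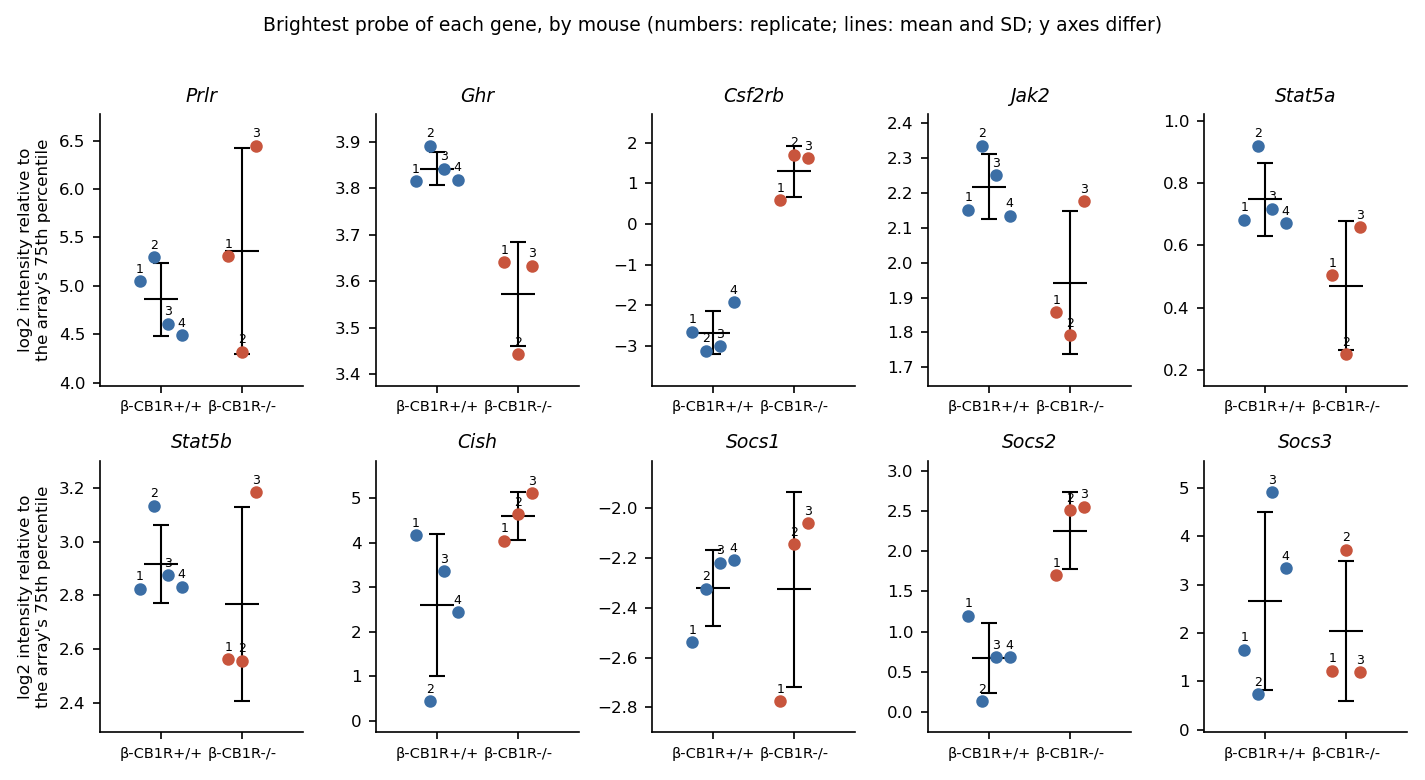
The brightest probe of each of the 10 genes by mouse. Each panel plots log2 intensity relative to the array's 75th percentile (y axes differ) for 4 β-CB1R+/+ and 3 β-CB1R-/- mice, numbered by replicate, with the mean and SD as lines. *Csf2rb* and *Socs2* are higher, and *Ghr* and *Stat5a* lower, in every β-CB1R-/- mouse than in any β-CB1R+/+ mouse, while *Prlr*, *Jak2*, *Stat5b*, *Cish*, *Socs1* and *Socs3* overlap.

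Of the receptors, *Csf2rb* stood out. It encodes the common beta chain through which GM-CSF, IL-3 and IL-5 engage JAK2 and STAT5, mostly in blood cells. The brighter probe (A_52_P52618) read −2.65, −3.12, −3.00 and −1.93 in β-CB1R+/+ replicates 1 to 4 and 0.58, 1.70 and 1.62 in β-CB1R-/- replicates 1 to 3. All 3 β-CB1R-/- mice were far above the highest β-CB1R+/+ mouse. *Csf2rb* rose by 3.98 on the log2 scale (SE 0.38, 95% CI 3.09 to 4.86, limma adjusted p = 0.0165), which is 15.7-fold (8.52 to 29.1), although only 3 of the 4 β-CB1R+/+ arrays were well above background.

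The second *Csf2rb* probe (A_66_P123635) showed a smaller difference, again with no overlap. It read between −3.83 and −3.27 in β-CB1R+/+ mice, where 2 of 4 arrays were well above background, and −2.39, −1.79 and −2.12 in β-CB1R-/- mice. The difference was 1.35 (SE 0.23, 95% CI 0.82 to 1.89), or 2.55-fold, and did not pass (limma adjusted p = 0.221). This probe met the filter of 3 mice only with the β-CB1R-/- group, where it was higher, so its separation is no independent support. With normexp background correction on median spot signals the differences were smaller, 2.70 for the brighter probe (limma adjusted p = 0.00377) and 0.51 (SE 0.16) for this one. The size of the *Csf2rb* difference thus varied with the probe and the processing.

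*Csf2rb2*, the mouse-specific paralog that serves IL-3, lies beside *Csf2rb* with only the microRNA gene *Mir7676-1* between them. Its brighter probe read between −4.07 and −1.48 in β-CB1R+/+ mice, where 2 of 4 arrays were well above background, and between −0.64 and −0.26 in β-CB1R-/- mice, a difference of 2.30 (SE 0.53, limma adjusted p = 0.684). Its other probe was well above background on 0 of 4 β-CB1R+/+ arrays and on all those of β-CB1R-/- mice. It was higher in β-CB1R-/- islets by at least 3.45-fold (limma adjusted p = 0.175), a bound against the larger of the array's dimmest well-detected signal and the signal of the probe itself. Neither passed the threshold. Both probes met the filter of 3 mice only with the β-CB1R-/- group, where they were higher, so their differences are no separate support. How far probes of one paralog take up transcript of the other was not tested.

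The alpha chains that pair with *Csf2rb* had negative differences, with overlapping mice. *Csf2ra*, the GM-CSF receptor alpha chain, differed by −0.14 (SE 0.22), *Il3ra* by −0.66 (SE 0.42) and *Il5ra* by −0.58 (SE 0.32), each with a limma adjusted p of 0.999. Of their ligands, *Csf2*, encoding GM-CSF, was well above background on 3 of 4 β-CB1R+/+ and 2 of 4 β-CB1R-/- arrays with overlapping mice, and *Il5* was well above background on no array. Macrophage markers stood beside the *Csf2rb* difference. Of 14 such markers 11 were higher in β-CB1R-/- islets, 0 passed the threshold, 1 at an unadjusted p under 0.05, and the median difference was 0.30. Their summed level relative to the 75th percentile was 50.4 to 67.8 in β-CB1R+/+ and 71.7 to 97.5 in β-CB1R-/- mice, but most of that sum came from *Itgam*, and without it the sums overlapped, at 17.5 to 25.6 and 20.1 to 33.8. The mean of their log2 levels was higher in β-CB1R+/+ replicate 4 than in β-CB1R-/- replicates 1 and 2. None of the 14 was at background on every array, and single markers ran from −0.04 for *Fcer1g* and 0.04 for *Adgre1* to 0.38 for *Csf1r*, 0.51 for *Itgam*, 0.60 for *Cd68*, 0.97 for *Lyz2* and 1.69 for *Mrc1*, the last resting on β-CB1R+/+ signals well above background on 1 of 4 arrays. With the macrophage mean as a covariate, an alternative chosen after seeing the data, the *Csf2rb* difference was 3.48 with a limma adjusted p of 0.100.

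The *Csf2rb* call was not robust to which mice were used, although its size was. Leaving out β-CB1R+/+ replicate 1, 2 or 3 gave limma adjusted p values of 0.0501, 0.0600 and 0.0780, and leaving out β-CB1R-/- replicate 2 or 3 gave 0.173 and 0.116, with differences of 3.77 to 4.34 over all 7 omissions.

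*Prlr* encodes the prolactin receptor, the lactogen receptor of beta cells. Its brighter probe (A_66_P139387) read 5.05, 5.29, 4.61 and 4.49 in β-CB1R+/+ replicates 1 to 4 and 5.30, 4.32 and 6.45 in β-CB1R-/- replicates 1 to 3. The β-CB1R-/- mice held both the highest and the lowest value of the 7. The difference was 0.50 (SE 0.47, 95% CI −0.60 to 1.59, limma adjusted p = 0.999, exact permutation p = 0.486). The other probe (A_52_P458279) read 1.45, 1.82, 0.92 and 0.90 in β-CB1R+/+ mice and 1.90, 0.85 and 3.00 in β-CB1R-/- mice, a difference of 0.65 (SE 0.49, 95% CI −0.48 to 1.78, limma adjusted p = 0.999). Both probes ranked the 7 mice in the same order, with β-CB1R-/- replicates 3 and 1 the highest and β-CB1R-/- replicate 2 the lowest.

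The split of mice into high and low *Prlr* was shared with another set of genes. The mice with the lowest *Prlr* levels on both probes, β-CB1R+/+ replicates 3 and 4 and β-CB1R-/- replicate 2, were those with the highest mean level of 16 immediate-early genes (among them *Jun* and *Nr4a1*), transcripts that appear within minutes of stress or stimulation. Relative to the average over mice, that mean was 2.16, 1.36 and 2.29 log2 units in these mice and negative, down to −1.82, in the other 4, though within these groups the order of mice differed. The same mice were also the highest for *Socs3*. The grouping was seen in the data and cuts across genotype, its part in the spread of *Prlr* was not tested, and *Prlr* differed between genotypes by 0.46 with the immediate-early mean as a covariate, an alternative chosen after seeing the data. Without β-CB1R-/- replicate 3, the mouse with the most *Prlr* signal, the difference of the brighter probe was −0.05, and without β-CB1R-/- replicate 2 it was 1.02. For the other probe the difference was 0.11 to 1.18 with a mouse left out.

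**Figure D2:**
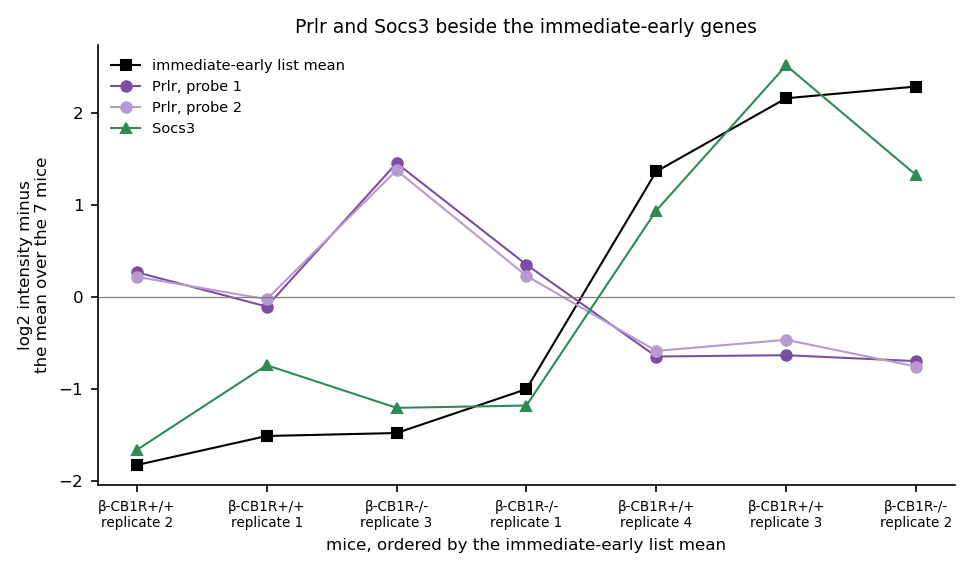
Log2 intensity minus the mean over the 7 mice (y axis) for both *Prlr* probes (probe 1 is A_52_P458279, probe 2 A_66_P139387), for *Socs3* and for the mean of 16 immediate-early genes, with the mice on the x axis in order of that mean. The 3 mice on the right, of both genotypes, are the lowest for *Prlr* and the highest for *Socs3*.

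*Ghr* encodes the growth hormone receptor. The brighter probe (A_51_P499854) was nearly level among β-CB1R+/+ mice, at 3.82, 3.89, 3.84 and 3.82, and read 3.64, 3.44 and 3.63 in β-CB1R-/- mice. Every β-CB1R-/- mouse was below every β-CB1R+/+ mouse, by a small margin. The difference was −0.27 (SE 0.17, 95% CI −0.66 to 0.12, exact permutation p = 0.0286) and did not pass (limma adjusted p = 0.999). The second probe (A_55_P2059412), designed on another transcript, differed by 0.03 (SE 0.18, 95% CI −0.39 to 0.44) with overlapping mice, so the lower level was seen with 1 of the 2 probes.

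Downstream of the receptors, *Jak2*, which encodes the kinase, read between 2.14 and 2.34 in β-CB1R+/+ mice and 1.86, 1.79 and 2.18 in β-CB1R-/- mice. The difference was −0.28 (SE 0.19, 95% CI −0.71 to 0.15, limma adjusted p = 0.999), with β-CB1R-/- replicate 3 inside the range of the β-CB1R+/+ mice. *Stat5a* read 0.68, 0.92, 0.72 and 0.67 in β-CB1R+/+ replicates 1 to 4 and 0.50, 0.25 and 0.66 in β-CB1R-/- replicates 1 to 3. The mice did not overlap, but β-CB1R+/+ replicate 4 and β-CB1R-/- replicate 3 were almost equal. The difference was −0.28 (SE 0.19, 95% CI −0.71 to 0.16, limma adjusted p = 0.999, exact permutation p = 0.0286).

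*Stat5b*, the neighbour of *Stat5a* on chromosome 11 with no gene between them, had 2 probes. A_55_P2031043 read 2.82, 3.13, 2.87 and 2.83 in β-CB1R+/+ mice and 2.56, 2.56 and 3.18 in β-CB1R-/- mice. A_55_P2031045 read 2.47, 2.83, 2.25 and 2.14 in β-CB1R+/+ mice and 1.90, 1.87 and 2.38 in β-CB1R-/- mice. On both, β-CB1R-/- replicates 1 and 2 were below every β-CB1R+/+ mouse and replicate 3 was not. A_55_P2031043 differed by −0.15 (SE 0.22, 95% CI −0.67 to 0.37) and A_55_P2031045 by −0.37 (SE 0.24, 95% CI −0.93 to 0.19), each with a limma adjusted p of 0.999 and overlapping mice. The kinase and STAT5 probes, 4 in all, all had lower means in β-CB1R-/- islets, and the 95% CI of each included 0. In each of these 4 probes β-CB1R+/+ replicate 2 was among the 2 highest of the 7 mice and β-CB1R-/- replicate 2 was the lowest. Beta cell markers had a similar order, with β-CB1R+/+ replicate 2 the highest and β-CB1R-/- replicate 2 the lowest for the mean of 11 markers, of which 10 were lower in β-CB1R-/- islets, with a median difference of −0.19 and 0 at an unadjusted p under 0.05 (limma). Their part in the *Jak2* and *Stat5* values was not tested.

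The feedback inhibitors did not move together. *Socs2* and *Cish* were higher on average in β-CB1R-/- islets, *Socs1* was level and *Socs3* varied widely within both genotypes.

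*Socs2*, whose product restrains growth hormone signalling, separated the genotypes on every probe. Its brightest probe (A_51_P107362, printed in 10 spots) read 1.20, 0.13, 0.68 and 0.68 in β-CB1R+/+ replicates 1 to 4 and 1.71, 2.52 and 2.56 in β-CB1R-/- replicates 1 to 3. The lowest β-CB1R-/- mouse was above the highest β-CB1R+/+ mouse. The difference was 1.59 (SE 0.32, 95% CI 0.85 to 2.32), a 3.01-fold higher level (1.80 to 5.01) with an exact permutation p of 0.0286, and it did not pass over all probes (limma adjusted p = 0.406).

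The other probes of *Socs2* gave the same separation. A_55_P1992834 read 0.90, 0.01, 0.43 and 0.68 in β-CB1R+/+ mice and 1.66, 2.27 and 2.38 in β-CB1R-/- mice, and A_55_P1992838 read 0.49, −0.59, −0.07 and 0.03 against 0.89, 1.73 and 1.90. A_55_P1992834 differed by 1.60 (SE 0.28, limma adjusted p = 0.253) and A_55_P1992838 by 1.54 (SE 0.34, limma adjusted p = 0.582), again with no overlap. On all 3 probes β-CB1R-/- replicate 3 was the highest mouse, β-CB1R-/- replicate 1 the lowest of its genotype and β-CB1R+/+ replicate 1 the highest of its own. With any one mouse left out the difference of the brightest probe stayed between 1.41 and 1.86, and with the immediate-early mean as a covariate it was 1.59.

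*Cish* encodes the SH2 protein that blocks STAT5 docking on the receptors, and it is a standard STAT5 target. Its single probe read 4.16, 0.44, 3.36 and 2.43 in β-CB1R+/+ replicates 1 to 4 and 4.04, 4.63 and 5.11 in β-CB1R-/- replicates 1 to 3. The β-CB1R+/+ mice spread over 3.72 log2 units and the β-CB1R-/- mice over 1.07, and β-CB1R+/+ replicate 1 lay above β-CB1R-/- replicate 1. The difference was 2.00 (SE 0.80, 95% CI 0.16 to 3.84), or 3.99-fold (1.12 to 14.3), with a limma unadjusted p of 0.0367, an adjusted p of 0.999 and an exact permutation p of 0.114. It was 1.28 without β-CB1R+/+ replicate 2, the mouse with the lowest *Cish* signal, and 2.52 without β-CB1R+/+ replicate 1. The repeat arrays of β-CB1R-/- replicate 2 differed by 0.07 for *Cish*.

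**Figure D3:**
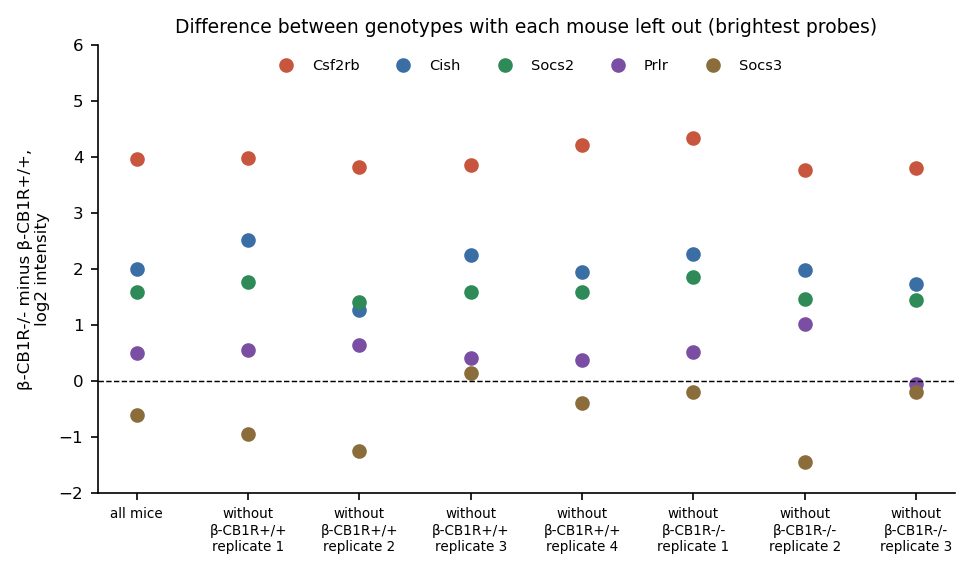
Difference between genotypes in log2 intensity (y axis, β-CB1R-/- minus β-CB1R+/+) for the brightest probes of 5 genes with all mice and with each mouse left out in turn (x axis). *Csf2rb* stays between 3.77 and 4.34 and *Socs2* between 1.41 and 1.86, *Cish* ranges from 1.28 to 2.52, and *Prlr* and *Socs3* each cross 0 with 1 of the mice left out.

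*Socs1*, which inhibits JAK kinases directly, was well above background on all arrays. It read −2.54 to −2.21 in β-CB1R+/+ and −2.77 to −2.06 in β-CB1R-/- mice. The difference was −0.005 (SE 0.23, 95% CI −0.54 to 0.53), and the range of the β-CB1R-/- mice enclosed that of the β-CB1R+/+ mice.

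*Socs3*, the inhibitor most tied to IL-6 type cytokines and a rapid-response gene, read 1.66, 0.74, 4.91 and 3.34 in β-CB1R+/+ replicates 1 to 4 and 1.22, 3.72 and 1.19 in β-CB1R-/- replicates 1 to 3. High and low mice occurred in both genotypes, over 4.17 log2 units in β-CB1R+/+ mice. The difference was −0.62 (SE 1.04, 95% CI −3.02 to 1.79, limma adjusted p = 0.999), and it was 0.13 without β-CB1R+/+ replicate 3. A difference of several fold in either direction thus lies inside the interval for *Socs3*.

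**Figure D4:**
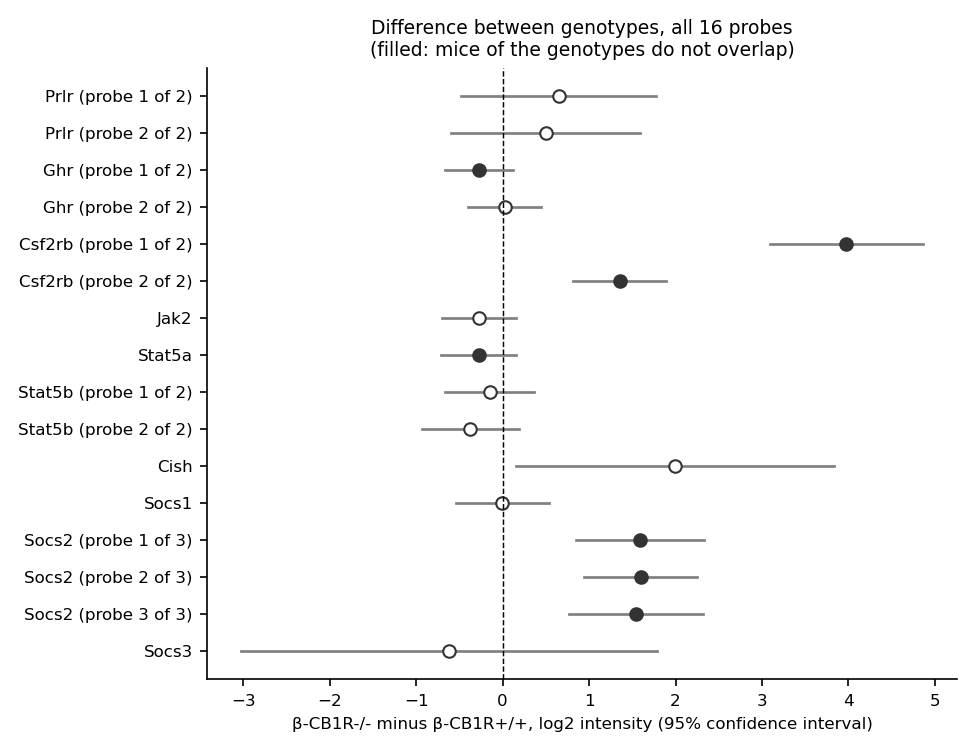
Difference between genotypes (x axis, β-CB1R-/- minus β-CB1R+/+, log2 intensity) with its 95% confidence interval from limma for each of the 16 probes (rows). Filled points mark the 7 probes for which no β-CB1R-/- mouse lies within the range of the β-CB1R+/+ mice: both of *Csf2rb* and the 3 of *Socs2* on the right, 1 of *Ghr* and the probe of *Stat5a* on the left.

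The mouse pattern of *Cish* was compared with that of every other gene, by the root mean square difference of mean-centred log2 levels over the 7 mice, as a description with no test. The nearest of 16949 genes that are no members of the chain were *Cd300ld*, *Ism1*, *Trib3*, *Sqstm1* and *Tph2*, at 0.517 to 0.718 log2 units. Each had its lowest or second lowest level in β-CB1R+/+ replicate 2, at −1.08 for *Trib3* and −1.53 for *Sqstm1*. For *Cd300ld* (−4.33), *Ism1* (−4.36) and *Tph2* (−4.53) that reading was below −3.91, the dimmest signal well above background on that array, so their likeness to *Cish* rests in part on a value at background. *Socs2*, at 0.818, would stand in place 31 of that ranking, *Csf2rb* (1.43) in place 4232, *Prlr* (1.48) in place 6335 and *Socs3* (1.92) in place 16577.

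The other genes of the pathway were read from 5 lists with 101 entries, the brightest compared probe standing for each gene. Over all 16959 genes compared, 0.171% passed the threshold, all of them higher in β-CB1R-/- islets, and 3.9% had an unadjusted p under 0.05 (limma). The mice did not overlap for 4.83% (2.61% higher and 2.22% lower), and the median difference was −0.04.

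Of 15 ligands 13 had a probe and 5 were compared, 4 higher and 1 lower, with 0 past limma's adjusted threshold, 0 at an unadjusted p under 0.05 and a median difference of 0.41. That median was 0.0843 with normexp background correction, between 0.187 and 0.216 when replicate 1 or 2 of either genotype was omitted, and between 0.434 and 0.477 when another mouse was. *Prl*, the gene for prolactin, *Il5* and *Il6* had probes well above background on no array. Of those compared, *Igf1* had the largest difference, 0.49 (SE 0.78), with wide overlap. By relative mRNA expression in isolated islets, the paper found less *Igf1* in β-CB1R-/- than in β-CB1R+/+ mice, the opposite direction.

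Of the 23 other cytokine receptors 22 were compared, 12 higher and 10 lower, with a median difference of 0.03, 0 past the adjusted threshold and 3 at an unadjusted p under 0.05 (limma). The mice did not overlap for *Csf2rb2* (above), for *Il13ra1*, an IL-13 receptor chain (0.55, SE 0.20), and for *Ifngr2*, the signalling chain of the interferon-γ receptor (0.56, SE 0.22), all higher in β-CB1R-/- islets. Of these, *Csf2rb2* was compared only because of its signal in β-CB1R-/- mice.

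The 8 other JAK kinase and STAT genes were level. There were 4 higher and 4 lower, between −0.20 for *Stat2* and 0.38 for *Tyk2*, with a median of 0.03, 0 past the adjusted threshold and 0 at an unadjusted p under 0.05 (limma). *Jak1* differed by −0.11 (SE 0.24) and *Stat3* by −0.01 (SE 0.21). Among the 29 other inhibitors, phosphatases and adaptors, 27 were compared, 7 higher and 20 lower, between −0.49 and 0.41 with a median of −0.12. None of the 27 passed the adjusted threshold, 0 had an unadjusted p under 0.05 (limma) and none had mice that did not overlap.

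Of 26 reported STAT5 targets 24 were compared, 11 higher and 13 lower, with a median of −0.03 and 4 at an unadjusted p under 0.05 by limma, 3 higher and 1 lower. The list does not record in which direction STAT5 moves each gene, so these counts and the median do not measure STAT5 output. *Tph1*, the serotonin-synthesis enzyme that lactogens induce in beta cells, was the one that passed. It read −4.82, −3.55, −5.61 and −3.38 in β-CB1R+/+ mice, where 1 of 4 arrays was well above background, and 4.15, 2.49 and 5.39 in β-CB1R-/- mice. The fitted rise was 8.35 on the log2 scale (SE 0.77, limma adjusted p = 0.0142), which is no measured fold, since the probe was dim on 3 of 4 β-CB1R+/+ arrays. *Tph1* and *Tph2*, a second tryptophan hydroxylase, met the filter of 3 mice only with the β-CB1R-/- group. The filter thus favoured a higher level in that group, and their differences and p-values are no separate support for one. The *Tph1* call was lost when replicate 3 of either genotype or β-CB1R-/- replicate 2 was dropped, with the replicate block, the t test and the macrophage covariate, and when every array had to be well above background. *Tph2* was also well above background on 1 of 4 β-CB1R+/+ arrays, and read between −4.59 and −2.98 in β-CB1R+/+ mice against −2.30 to −1.60 in β-CB1R-/- mice. The mice also did not overlap for *Igfals*, the growth hormone-responsive subunit of the circulating IGF complex (0.82, SE 0.28). Levels below every β-CB1R+/+ mouse were seen for *Ccnd1*, encoding cyclin D1 (−0.71, SE 0.21), and for *Foxm1*, a proliferation factor (−0.35, SE 0.18). Other STAT5 targets on the list had overlapping mice and a limma adjusted p of 0.999, among them *Cdkn1a* (0.98, SE 0.52), *Slc2a2* (−0.74, SE 0.42), *Bcl2l1* (0.58, SE 0.34), *Cdkn1b* (−0.39, SE 0.22), *Bcl6* (0.49, SE 0.46), *Pim1* (−0.05, SE 0.44), *Ccnd2* (−0.15, SE 0.27), *Myc* (0.24, SE 0.53) and *Osm* (−0.18, SE 0.81).

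**Figure D5:**
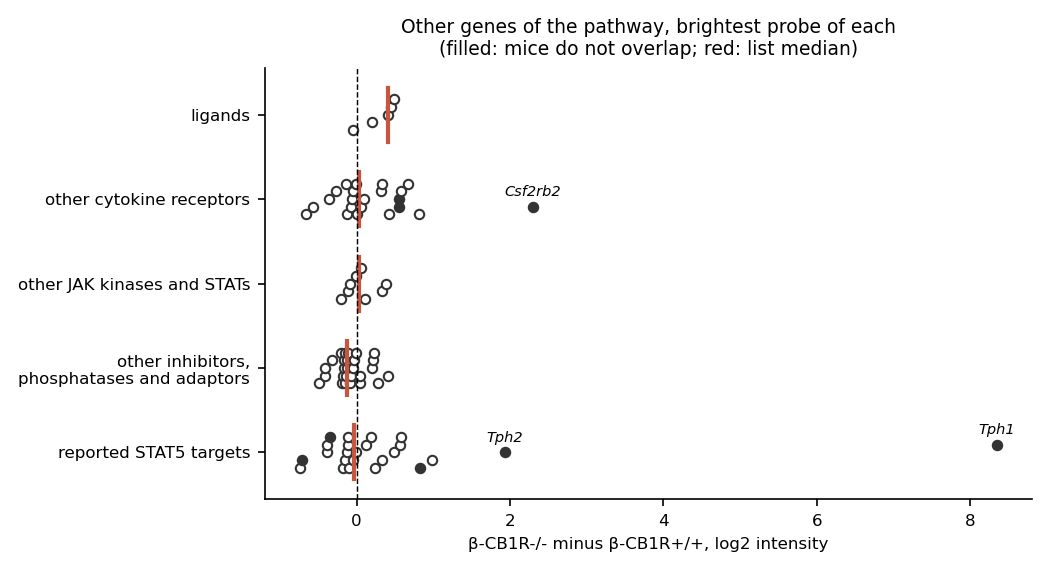
Difference between genotypes (x axis, β-CB1R-/- minus β-CB1R+/+, log2 intensity) of the compared genes in the 5 pathway lists (rows), 1 point a gene. Filled points are genes whose mice do not overlap and red lines are list medians. Nearly all points lie within 1 log2 unit of 0, and *Csf2rb2*, *Tph2* and *Tph1*, at fitted values of 2.30, 1.94 and 8.35, lie furthest to the right, each dim on at least 2 of 4 β-CB1R+/+ arrays.

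Markers of the islet's other cells give the setting of these values. Of 7 alpha cell markers 6 were lower in β-CB1R-/- islets by a median difference of −0.75, with 0 past the adjusted threshold and 4 at an unadjusted p under 0.05 (limma), and the summed level was 980 to 1315 in β-CB1R+/+ and 777 to 940 in β-CB1R-/- mice. Acinar markers were higher for 12 of 13 with a median of 0.18. Stellate cell and fibroblast markers were so for 7 of 10 with a median of 0.73, although β-CB1R+/+ replicate 4 had a higher mean level than any β-CB1R-/- mouse. Lymphocyte and granulocyte markers were higher for 6 of 7 with a median of 0.33. That median was the value of *Cd8a*, well above background on 1 of 4 β-CB1R+/+ and 2 of 4 β-CB1R-/- arrays. The 1 lower marker, *Cd3e* (−0.64, SE 0.27), was well above background on every array. Duct (median 0.10), endothelial (−0.04), delta and PP cell (−0.27) and immediate-early lists (−0.15) had members on both sides, and 0 markers of these 7 lists passed the adjusted threshold (limma; 1 at an unadjusted p under 0.05). The summed levels of all marker lists but macrophages and alpha cells overlapped between genotypes. In which cells *Csf2rb*, *Socs2* or *Cish* were transcribed was not tested.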

How the data were processed

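Islet RNA of 4 β-CB1R+/+ and 3 β-CB1R-/- mice was measured on 8 arrays. The deposited scanner files give each spot's intensity from Feature Extraction 11.5.1.1, background subtracted and detrended within the array. The authors also deposited a Z score per spot, used only as an alternative. Per the file headers all arrays shared 1 slide.

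Intensities were put on the log2 scale relative to each array's 75th percentile over 59305 non-control spots. Outlier spots were dropped, and replicate spots and the repeat arrays were averaged. The 39165 of 55681 probes detected well above background in 3 or more mice were fitted with limma 3.58.1 (lmFit and eBayes, R 4.3.3, Benjamini-Hochberg adjustment over all, threshold 0.05), after tests on simulated data. Probes were named through RefSeq accessions, 28026 to 1 symbol. p-values measure the spread between these mice.

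All 10 genes are named with every probe, with *Cnr1*, *Csf2rb2*, pathway-list genes that passed or, up to 3 a list by size, had mice that did not overlap, the 2 brightest markers of lists set beside a result, and the 5 genes most like *Cish*. Further genes were named after their values were seen: partners of *Csf2rb*, ends of a list's range, *Foxm1*, *Prl*, *Igf1*, *Il6*, *Cd8a*, *Cd3e*, *Adgre1* and further macrophage markers, and common JAK-STAT genes. The genes and lists were chosen with earlier results of these data known. The 5 pathway lists and 10 marker lists (macrophages, lymphocytes and granulocytes, acinar, duct, endothelial, stellate cells and fibroblasts, beta, alpha, delta and PP cells, immediate-early genes) are described by counts and medians. Alternatives varied background correction, scaling, filters, arrays, variance model, test, mice and a replicate block.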

Additional observations from a re-analysis of the deposited data

Results flagged for a closer look

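Over 34 sets of values in the 4 β-CB1R+/+ mice, from single probes and list means, 2 had a mouse that stood far from the other three by Dixon's test at the 95% level, where 1.7 are expected by chance. *Stat5b* (A_55_P2031043) read 3.133 in β-CB1R+/+ replicate 2 and 2.82 to 2.87 in the others of that genotype. The delta and PP cell markers had a mean of 0.609 in β-CB1R+/+ replicate 4 and −0.20 to −0.07 in the others, relative to the average over mice. The causes were not tested.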

How the results depend on the processing

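The number of mice limits the precision, and *Csf2rb2* was well above background on 2 of 4 β-CB1R+/+ arrays. Of the member results, *Socs2* (all 3 probes), *Cish*, *Csf2rb*, *Jak2*, *Stat5a* and both *Stat5b* probes kept their direction under every alternative run. So did the dimmer *Prlr* probe (A_52_P458279) and the brighter *Ghr* probe (A_51_P499854). The *Csf2rb* call (A_52_P52618) did not keep its side of the threshold with the methods' t test after Benjamini-Hochberg adjustment (difference 3.98, adjusted p = 0.370), with the replicate block (4.22, limma adjusted p = 0.0925), with the macrophage covariate (3.48) or without 5 of the 7 mice in turn (differences 3.77 to 3.98). Its limma adjusted p was 0.00343 to 0.0274 in the other planned fits with all mice and 0.0495 with the immediate-early covariate, and the probe is not compared when all 8 arrays must be well above background. Normexp was run on median spot signals.

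The member probes past the threshold as higher numbered 0 under the filter on all 8 arrays, the t test, the replicate block and the macrophage covariate, and 0 to 1 with a mouse left out. Over all probes, 42 passed as higher and 1 as lower. The higher count was 23 with no filter on dim probes, 24 with the filter on all 8 arrays, 0 with the t test after adjustment (757 higher and 655 lower at the methods' unadjusted threshold), 0 with the replicate block (720 and 994 at an unadjusted p under 0.05), 16 with the immediate-early covariate, 2 with the macrophage covariate and 0 to 42 with a mouse left out, being 0 when β-CB1R-/- replicate 2 was dropped and 5 when replicate 3 of either genotype was. The lower count was 0 with normexp, the deposited Z scores, no filter, the filter on all 8 arrays, the first repeat array alone, the t test, the replicate block, the macrophage covariate and each mouse left out. The STAT5 target past the threshold, *Tph1*, was lost (count 0) with the filter on all 8 arrays, the t test, the replicate block and the macrophage covariate, and the count was 0 to 1 with a mouse left out, being 0 when replicate 3 of either genotype or β-CB1R-/- replicate 2 was dropped. The median of that list was −0.10 to 0.24 (without β-CB1R-/- replicate 3) with a mouse left out, and that of the ligands was 0.0843 with normexp.

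Directions reversed for 4 probes, none past the threshold. *Socs1* was 0.000833 with the Z scores (in their unit), 0.0195 with the second repeat array alone, 0.0332 with the replicate block, 0.00175 with the immediate-early covariate and −0.14 to 0.22 with a mouse left out. *Ghr* (A_55_P2059412) was −0.0643 to 0.103, *Socs3* −1.45 to 0.135 and *Prlr* (A_66_P139387) −0.0484 to 1.02 with a mouse left out. Replicate numbers are shared between genotypes, and the sample titles do not say whether they pair mice. Same-number correlations of deviations were 0.42, −0.27 and −0.06, which cannot settle it. The replicate block left 0 probes past the threshold. The immediate-early and macrophage covariates were chosen after seeing the data. A block for slide or scan was not run, because 1 slide held all arrays. The causes of these changes were not tested.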
